A study of Mus musculus with 10 samples.

Results

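The fatty acid and cholesterol synthesis genes are 35 genes that build fatty acids and sterols in the cytosol and endoplasmic reticulum or control that synthesis. They were taken by function from a list of gene names, with earlier results of these data known. All 35 were found among the 24704 named genes of the arrays. They were read in 2 arms, 14 genes of the fatty acid arm and 21 of the sterol arm. The RNA was that of freshly isolated mouse liver sinusoidal endothelial cells, the fenestrated lining of the liver capillaries. The knockout group (Gata4-LSEC-KO) carried the transgene Clec4g-icre, made in C57BL/6N mice, together with the floxed allele Gata4tm1.1Sad. The control group consisted of sibling mice, labelled WT, whose alleles of transgene and floxed gene are not given in the labels. Clec4g is expressed in liver sinusoidal endothelium, so deletion was aimed at these cells and not at other liver cells. Each group had 5 arrays, each array held the RNA of cells pooled from 3 mice, and cells had been taken with beads against CD146. Age, sex and batch are not given in the labels.

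Fatty acid synthesis starts from cytosolic acetyl-CoA, which ATP citrate lyase (Acly) and acetyl-CoA synthetase (Acss2) supply. Acetyl-CoA carboxylase (Acaca, Acacb) turns it into malonyl-CoA, fatty acid synthase (Fasn) builds palmitate with NADPH from enzymes such as malic enzyme (Me1), and elongases and stearoyl-CoA desaturases lengthen and desaturate the product. The sterol pathway joins acetyl units into mevalonate, isoprenoids and squalene, which is cyclised to lanosterol and trimmed to cholesterol. Both pathways are driven by SREBP transcription factors, held in the endoplasmic reticulum by SCAP and INSIG proteins while sterols are plentiful. Srebf1 is known mainly for fatty acid genes and Srebf2 for sterol genes. In the liver both pathways are most active in hepatocytes, whose RNA can accompany sinusoidal cells through isolation.

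Values are log2 intensities after RMA, on which a difference of 1 is a 2-fold difference, and the median over all genes and arrays was 3.70. The labelled cell type was borne out by its markers, since the mean of 10 sinusoidal markers lay between 10.35 and 10.80 in the knockout and between 10.87 and 11.16 in the control arrays. The probe set of the targeted gene did not separate the groups, Gata4 reading 8.59 ± 0.24 (SD, n = 5) in knockout arrays and 8.71 ± 0.15 (SD, n = 5) in controls. The position of its probes relative to the deleted part was not known here, so it does not check the labels. Control replicate 1 stood apart, correlating across genes at 0.920 to 0.944 with the other arrays, which correlated among themselves at 0.969 to 0.988. It held the lowest value of the 10 arrays for 17 of the 35 members and the highest for 7, against 23.6% and 22.9% of all genes. Knockout replicates 1 and 4 had the highest mean of the hepatocyte markers. Over 18 measured markers it was 7.74 and 7.69 there, 6.15 to 6.47 in the other knockout arrays and 6.33 to 6.85 in the controls. Of the 18 markers, 13 in replicate 1 and 14 in replicate 4 lay above every control, while Cyp2e1 and Ass1 lay below every control in both.

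In the knockout, 3 members of the fatty acid arm were higher, and no member of the sterol arm passed the threshold. Fatty acid synthase rose 2.39-fold, the long-chain acyl-CoA synthetase gene Acsl3 rose 1.81-fold and the desaturase gene Scd2 rose 1.75-fold. These were 3 of 14 members of the fatty acid arm and 0 of 21 of the sterol arm at an adjusted p under 0.05 (limma, Benjamini-Hochberg over all 24704 genes). Over all genes 2.14% passed in either direction and 1.3% passed higher. The median log2 fold change was 0.54 in the fatty acid arm, 0.09 in the sterol arm and -0.02 over all genes. Without control replicate 1 these medians were 0.42, 0.01 and -0.02. An array of mixed RNA cannot tell a change per cell from a change in the share of cells that express the gene.

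Fasn, the multi-domain enzyme that assembles palmitate, gave the clearest difference of the members. The knockout arrays read 6.52, 6.14, 6.23, 6.40 and 6.29 in replicates 1 to 5, and the control arrays 4.84, 5.08, 5.12, 5.05 and 5.19. Every knockout array lay above every control array, and the nearest values of the groups were 0.95 apart. The difference in log2 units was 1.26 ± 0.11 (SE) in limma (adjusted p = 0.000189). Only 13 of all genes had a smaller p. Leaving out any 1 of the 10 arrays gave log2 fold changes of 1.21 to 1.30, and the adjusted p did not exceed 0.00118.

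Promoter sequence was set beside these values because SREBP proteins bind sterol regulatory elements next to NF-Y and Sp1 boxes. RefSeq windows of 250 bases before to 50 after the start site (GRCm38.p6) were held for 29 of the 35 members, and not for Fdft1, Fdps, Scd1, Scd2, Sqle and Stard4. Both strands were searched for the sterol regulatory element TCACNCCAC, the E-box CACGTG, the NF-Y box CCAAT and the Sp1 box GGGCGG, counting a gene if any of its windows matched. The NF-Y box was in 26 of the 29 members (89.7%), in 10 of 12 fatty acid genes and in 16 of 17 sterol genes. It was in 41.1% of all 27025 genes with a window and in 42.1% of the 9532 measured above the median of all values. The Sp1 box was in 16 of 17 sterol and 6 of 12 fatty acid genes, against 38.2% of all genes and 67.3% of those measured above the median. The E-box was in 5 sterol genes and 1 fatty acid gene (20.7% of the 29), against 8.09% and 11.7%. The sterol element was in 1 member, Hmgcs1, and in 1.44% of all genes. A match describes the letters and not a bound site, and the lack of a match does not show that a gene has no such site.

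Shown 5′ to 3′ are the 250 bases upstream of the start site of the called genes with a window (Fasn, Acsl3), of Thrsp, just outside the threshold, and of Hmgcs1 and Insig1, sterol genes holding the sterol element and the E-box. Capitals mark matches to the 4 motifs. Fasn lies at chr11:120824548-120824797 (minus strand), Acsl3 at chr1:78657575-78657824 (plus), Thrsp at chr7:97417551-97417800 (minus), Hmgcs1 at chr13:119690101-119690350 (plus) and Insig1 at chr5:28071162-28071411 (plus). In Fasn 3 NF-Y matches were found, of which 2 on opposite strands share 2 bases, and no Sp1 or sterol element match. In Hmgcs1 the sterol element begins at position -137 relative to the start site.
Fasn: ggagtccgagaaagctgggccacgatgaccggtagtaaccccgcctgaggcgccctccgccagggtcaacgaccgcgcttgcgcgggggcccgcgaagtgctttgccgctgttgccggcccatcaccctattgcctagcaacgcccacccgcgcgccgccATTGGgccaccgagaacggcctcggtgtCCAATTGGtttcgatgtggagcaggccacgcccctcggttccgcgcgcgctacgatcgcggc
Acsl3: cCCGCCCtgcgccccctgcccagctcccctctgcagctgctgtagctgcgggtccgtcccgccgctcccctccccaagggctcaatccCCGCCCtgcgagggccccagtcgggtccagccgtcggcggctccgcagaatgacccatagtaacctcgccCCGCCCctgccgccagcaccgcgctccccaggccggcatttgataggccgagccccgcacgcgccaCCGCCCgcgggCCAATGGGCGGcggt
Thrsp: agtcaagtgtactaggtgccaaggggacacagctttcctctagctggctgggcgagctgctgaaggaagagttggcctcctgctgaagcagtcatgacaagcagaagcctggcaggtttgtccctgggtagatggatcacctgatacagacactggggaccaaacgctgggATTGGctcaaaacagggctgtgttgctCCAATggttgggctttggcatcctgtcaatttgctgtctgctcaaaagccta
Hmgcs1: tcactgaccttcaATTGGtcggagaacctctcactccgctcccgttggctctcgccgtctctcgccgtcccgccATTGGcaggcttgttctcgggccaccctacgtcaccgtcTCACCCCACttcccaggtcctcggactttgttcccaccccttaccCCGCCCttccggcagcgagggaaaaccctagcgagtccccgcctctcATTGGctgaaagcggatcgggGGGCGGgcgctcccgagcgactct
Insig1: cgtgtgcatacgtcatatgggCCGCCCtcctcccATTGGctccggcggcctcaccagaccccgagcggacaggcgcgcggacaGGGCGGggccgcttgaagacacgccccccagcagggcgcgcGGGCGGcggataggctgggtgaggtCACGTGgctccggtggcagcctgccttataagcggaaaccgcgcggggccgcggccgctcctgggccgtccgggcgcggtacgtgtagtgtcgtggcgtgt

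**Figure D1:**
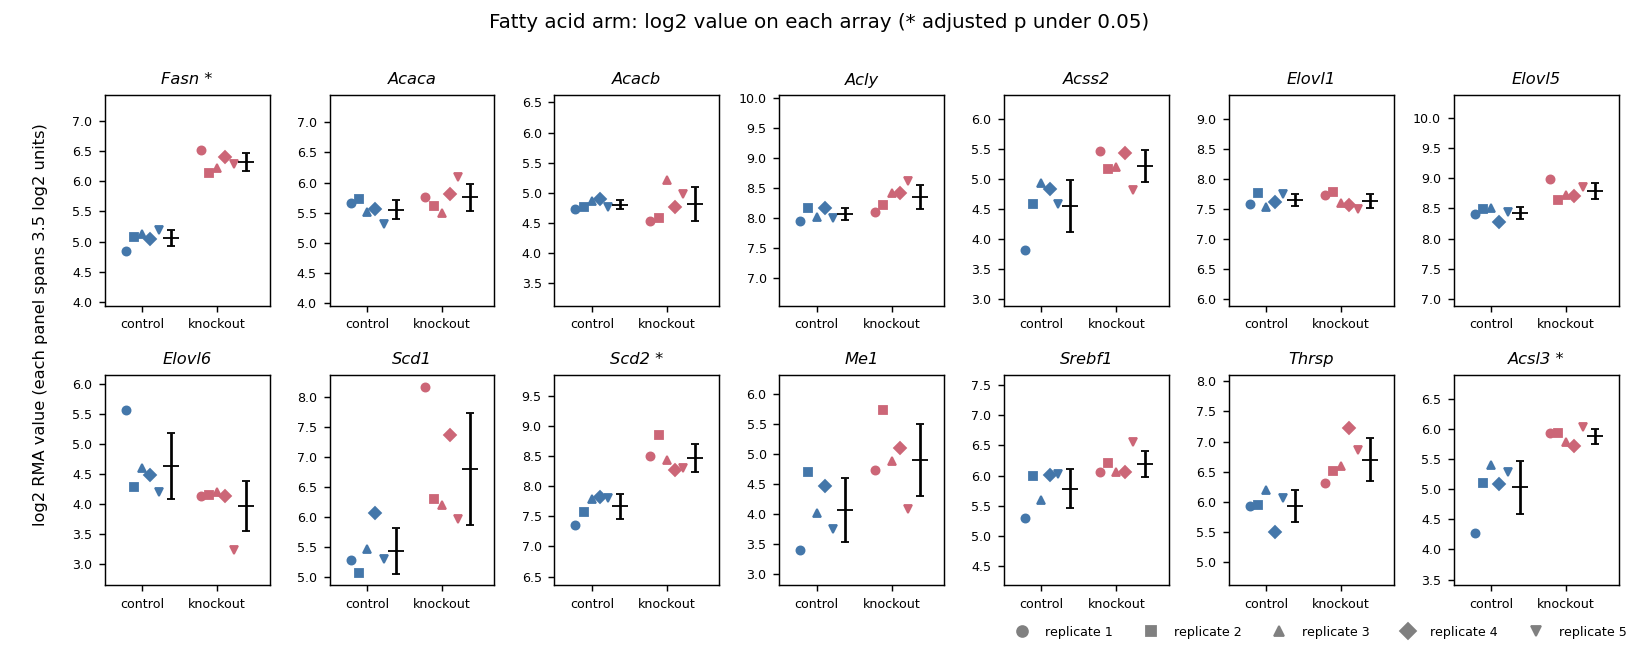
Log2 RMA value (vertical axis, 3.5 log2 units in each panel) of the 14 fatty acid arm genes on each of 5 control and 5 knockout arrays, with a symbol for each replicate number and the mean ± SD beside the points. Fasn, Scd2 and Acsl3, marked with an asterisk, passed the threshold, while Scd1 is spread from 5.96 to 8.16 among the knockout arrays.

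Scd2, the stearoyl-CoA desaturase that is the more widespread form outside the liver's hepatocytes, was also separated. Its values were 8.50, 8.86, 8.44, 8.27 and 8.31 in knockout replicates 1 to 5 and 7.35, 7.57, 7.78, 7.82 and 7.81 in control replicates 1 to 5. The groups did not overlap. Among the knockout arrays replicate 2 read highest, replicate 1 next and replicate 4 lowest. This gave a log2 fold change of 0.81 ± 0.14 (SE, adjusted p = 0.0116). The call held without each single array (adjusted p up to 0.0362). It ended without both knockout replicates 1 and 4 (adjusted p = 0.0649, log2 fold change 0.87) and with the replicate number as a block (adjusted p = 0.0708).

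Acsl3, which activates long-chain fatty acids at the endoplasmic reticulum and on lipid droplets, read 5.93, 5.94, 5.79, 5.73 and 6.03 in knockout replicates 1 to 5. The control arrays read 4.28, 5.10, 5.41, 5.08 and 5.29. The groups did not overlap, and control replicate 1 lay far below the other controls. The means differed by 0.85 ± 0.19 log2 units (SE, adjusted p = 0.0428). Without control replicate 1 they differed by 0.66 (adjusted p = 0.00779). The call ended when any array other than control replicate 1 or 3 was left out (adjusted p up to 0.105), and with the replicate number as a block (0.0969).

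Of the 14 fatty acid genes, 6 had knockout values wholly above the controls, where 2.55% of all genes did, and 1 had them wholly below, where 2.37% did (4.93% in either direction). Besides the 3 called genes these were Thrsp, Elovl5 and Srebf1 above, and Elovl6 below. Thrsp, a nuclear protein that accompanies lipogenesis, read 6.30, 6.52, 6.60, 7.22 and 6.86 in the knockout and 5.93, 5.95, 6.19, 5.50 and 6.07 in the control arrays. The nearest knockout and control values were 0.11 apart. At 0.77 ± 0.18 log2 units (SE, adjusted p = 0.0552) Thrsp lay just outside the threshold, and it passed without knockout replicate 1 (adjusted p = 0.0473).

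Elovl5, the elongase of polyunsaturated fatty acids, read 8.99, 8.65, 8.73, 8.71 and 8.86 in the knockout against 8.41, 8.50, 8.51, 8.27 and 8.44 in the control arrays. No values overlapped, and the log2 fold change was 0.36 ± 0.10 (SE, adjusted p = 0.104). Elovl6 extends palmitate to stearate and is the elongase closest to Fasn in the pathway. It read 4.13, 4.15, 4.20, 4.13 and 3.23 in the knockout and 5.57, 4.28, 4.60, 4.48 and 4.20 in the control arrays. The groups were only 0.0020 apart, and the widest deviations were knockout replicate 5 and control replicate 1. Elovl6 was at -0.66 ± 0.27 log2 units (SE, adjusted p = 0.301), and at -0.42 without control replicate 1. Elovl1, which makes very long saturated chains, was at -0.01 ± 0.10 (SE).

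Srebf1 encodes the SREBP form known for fatty acid genes, and its probe set does not separate the isoforms. It read 6.06, 6.20, 6.07, 6.06 and 6.56 in the knockout arrays and 5.29, 5.98, 5.60, 6.00 and 6.03 in the control arrays. All knockout values were above all control values, but 3 controls lay within 0.1 of the lowest knockout array. Srebf1 was at 0.41 ± 0.17 log2 units (SE, adjusted p = 0.300), and at 0.28 without control replicate 1.

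Scd1, the main desaturase of hepatocytes, had the largest log2 fold change of the 35 members, 1.36 ± 0.38 (SE), and did not pass (adjusted p = 0.109). Its knockout values were 8.16, 6.30, 6.19, 7.36 and 5.96, and its control values 5.28, 5.07, 5.46, 6.06 and 5.29. The highest values were those of knockout replicates 1 and 4, the arrays with the highest hepatocyte marker means, and the lowest knockout value lay under the highest control value. Whether probes of Scd1 and of its close relative Scd2 cross-hybridise was not tested. Me1, the malic enzyme, read 4.73, 5.73, 4.88, 5.09 and 4.09 in the knockout and 3.40, 4.71, 4.02, 4.46 and 3.75 in the control arrays. These overlapped, and the log2 fold change was 0.83 ± 0.31 (SE, adjusted p = 0.237).

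The supply of acetyl-CoA and malonyl-CoA showed no call. Acly was at 0.29 ± 0.11 (SE, adjusted p = 0.277) and Acss2 at 0.67 ± 0.21 (adjusted p = 0.149), or 0.48 without control replicate 1. Acaca, the cytosolic carboxylase that commits acetyl-CoA to fatty acids, was at 0.20 ± 0.13 (adjusted p = 0.556). Acacb, the mitochondrial form that restrains fatty acid oxidation, was at 0.01 ± 0.14 (adjusted p = 0.986). The 95% intervals of Acaca (-0.08 to 0.48) and Acacb (-0.29 to 0.31) both lie below that of Fasn, which began at 1.02. At an unadjusted p under 0.05 stood 11 of the 14 fatty acid genes, 10 higher and 1 lower. Over all genes 13.6% did in either direction, 7.07% higher and 6.57% lower. The 3 others were Acaca, Acacb and Elovl1.

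**Figure D2:**
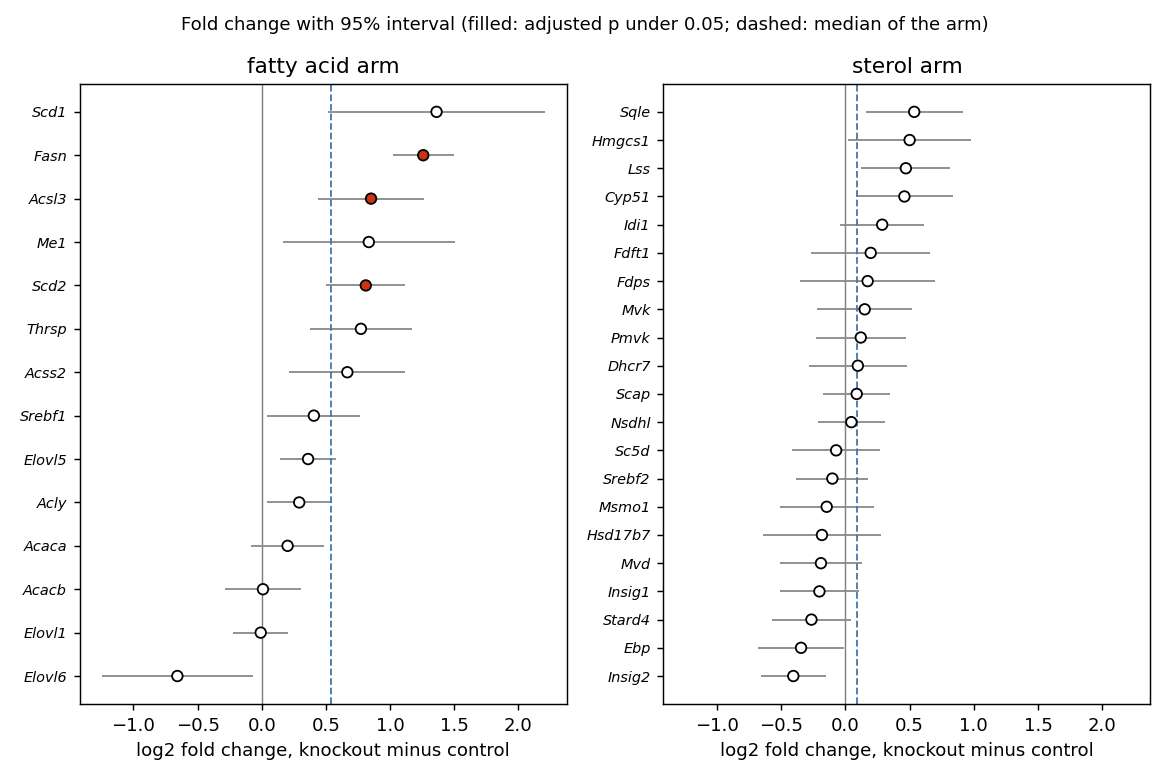
Log2 fold change, knockout minus control (horizontal axis), of each gene of the fatty acid arm and of the sterol arm, with its 95% interval from limma. Filled points passed an adjusted p of 0.05, the dashed line is the median of the arm (0.54 and 0.09), and the sterol genes lie between -0.41 and 0.54.

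The hepatocyte marker level of knockout replicates 1 and 4 was followed through the members in 2 ways. With the hepatocyte marker mean of each array as a covariate, Fasn kept a log2 fold change of 1.20 ± 0.11 (SE, adjusted p = 0.000532) and Scd2 one of 0.82 ± 0.15 (adjusted p = 0.0301). Scd1 then passed, at 0.98 ± 0.19 (adjusted p = 0.0383), and Acsl3 no longer did (0.84 ± 0.21, adjusted p = 0.0905). In this fit 1.44% of all genes passed. Of the 18 markers in the mean, 13 had a positive and 5 a negative log2 fold change, from -1.52 (Cyp2e1) to 2.06 (Tat). The mean can therefore hold group differences other than the amount of hepatocyte RNA, which this fit cannot separate. Scd1 was the member that followed the hepatocyte markers most closely within groups, with a slope of 1.15 ± 0.18 (SE) log2 units per unit of marker mean. That slope did not pass over all genes (adjusted p = 0.0980), nor did that of any other member (adjusted p of at least 0.942), where 0.0486% of all genes passed upward.

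Without knockout replicates 1 and 4, which left 3 knockout and 5 control arrays, Fasn still rose, by 1.16 ± 0.12 log2 units (2.24-fold, adjusted p = 0.00474). No other member passed, and 0.688% of all genes did. Scd1 was then at 0.72 ± 0.22 (adjusted p = 0.248), a fold of 1.65 in place of 2.57. Thrsp was at 0.73 ± 0.17 (adjusted p = 0.124) and Acsl3 at 0.89 ± 0.24 (adjusted p = 0.190). The Fasn values of knockout replicates 2, 3 and 5, whose hepatocyte marker means were within or below the control range, were 6.14 to 6.29. Of the 18 markers, 7 in replicate 2, 2 in replicate 3 and 1 in replicate 5 lay above every control. Below every control lay 6, 7 and 8 of them. Whether these arrays were free of added hepatocyte RNA was not tested.

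**Figure D3:**
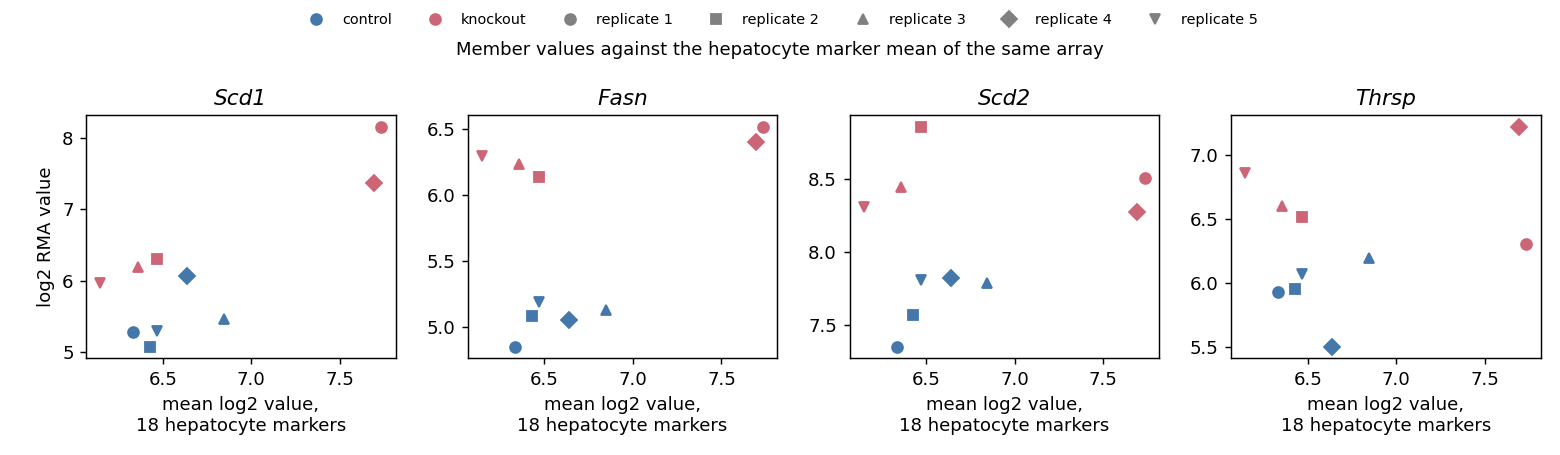
Log2 RMA value of Scd1, Fasn, Scd2 and Thrsp (vertical axes) against the mean log2 value of 18 hepatocyte markers on the same array (horizontal axes), for 5 control and 5 knockout arrays. Knockout replicates 1 and 4 lie at 7.74 and 7.69 on the horizontal axis and hold the highest Scd1 values. Fasn is above every control in all 5 knockout arrays, at 6.14 to 6.29 in replicates 2, 3 and 5. Whether replicates 2, 3 and 5 were free of added hepatocyte RNA was not tested.

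Markers of several cell types were set beside these results, against shares over all genes of 1.3% called higher, 0.846% called lower and 13.6% at an unadjusted p under 0.05. Of the 18 hepatocyte markers 1 rose (Tat, 4.18-fold, adjusted p = 0.0210) and 1 fell (Cyp2e1, 2.87-fold lower, adjusted p = 0.0268), and 6 had an unadjusted p under 0.05. Tat was higher in all 5 knockout arrays than in any control. Of the 10 sinusoidal markers 4 fell, and of 10 pan-endothelial markers 2 rose. Of 10 neutrophil and monocyte markers 5 rose, and their list mean was 3.98 to 5.82 in the knockout and 2.98 to 3.55 in the control arrays. Of 5 measured cholangiocyte markers 0 passed by limma, with 4 at an unadjusted p under 0.05, and the list mean was 4.41 to 6.29 against 3.63 to 4.33. Their part in the results on the members was not tested. The 5 measured adipocyte markers, among them Adipoq and Plin1, all had means under the median of all values, and 0 passed (1 at an unadjusted p under 0.05). List means of 8 Kupffer cell markers (6.91 to 7.97 against 5.16 to 8.11) and of 9 stellate cell markers (6.13 to 7.73 against 5.45 to 7.14) overlapped, with 0 passing in either list. Control replicate 1 held the lowest control mean of both lists. Without it, knockout minus control went from 0.39 to -0.05 for Kupffer cell and from 0.33 to 0.05 for stellate cell markers. At an unadjusted p under 0.05 were 0 Kupffer cell and 4 stellate cell markers.

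The sterol arm held no member past the threshold by limma. At an unadjusted p under 0.05 were 6 of the 21 genes, 4 higher and 2 lower, where 13.6%, 7.07% and 6.57% of all genes were. No member separated the groups completely. The 95% intervals of all 21 log2 fold changes lay between -0.68 (Ebp) and 0.98 (Hmgcs1). With all 10 arrays 12 of the 21 lay above 0 and 9 below. On each array the mean of the fatty acid arm minus that of the sterol arm was 0.98, 0.97, 0.75, 0.89 and 0.79 in knockout replicates 1 to 5. It was 0.35, 0.50, 0.43, 0.43 and 0.41 in the control arrays. The groups did not overlap in this difference, while the sterol mean itself was 5.45 to 5.61 against 5.37 to 5.55. This is given as a description with no test.

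**Figure D4:**
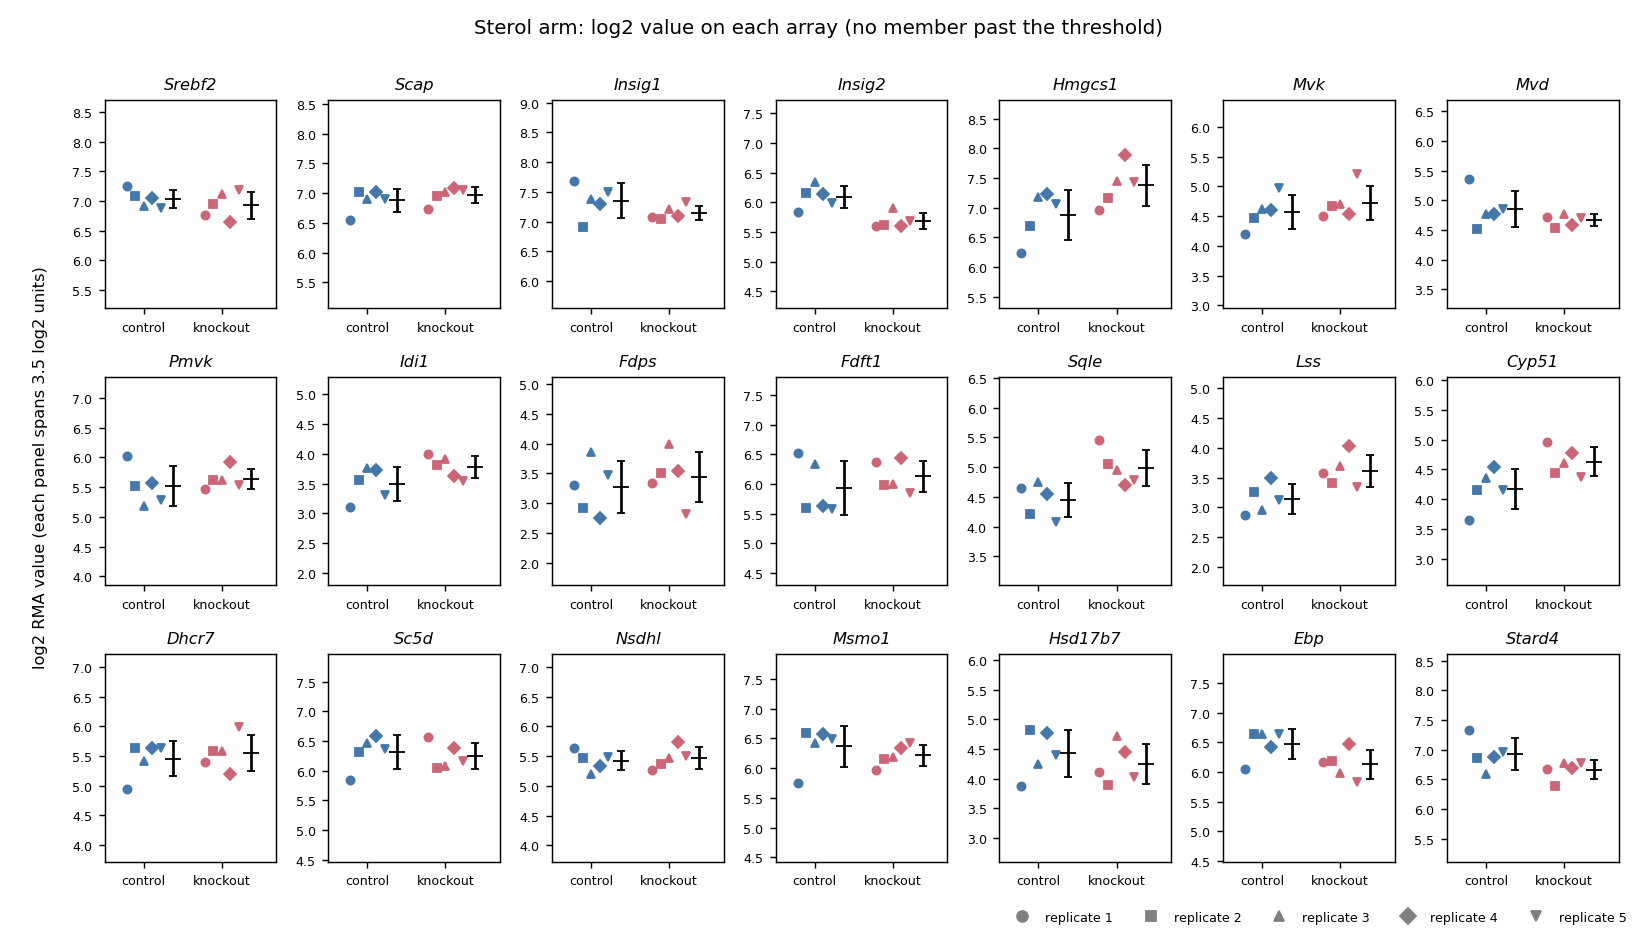
Log2 RMA value (vertical axis, 3.5 log2 units in each panel) of the 21 sterol arm genes on each of 5 control and 5 knockout arrays, with a symbol for each replicate number and the mean ± SD beside the points. Knockout and control values overlap in every panel, and control replicate 1 (circles) is often at an extreme, as for Cyp51 at 3.64.

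Among the sensors, Srebf2, the SREBP form known for sterol genes, read 6.76, 6.94, 7.12, 6.65 and 7.18 in the knockout and 7.25, 7.08, 6.92, 7.05 and 6.88 in the control arrays. Srebf2 was at -0.10 ± 0.13 log2 units (SE, adjusted p = 0.787). Scap, the escort of SREBP to the Golgi, read 6.73, 6.95, 7.02, 7.08 and 7.04 against 6.55, 7.02, 6.90, 7.02 and 6.89, a log2 fold change of 0.09 ± 0.12. Both genes overlapped between the groups, with 2 knockout arrays below every control for Srebf2 and 2 above every control for Scap.

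Insig1 and Insig2 encode the proteins that retain SCAP when sterols are plentiful, and Insig1 is itself an SREBP target. Insig1, whose promoter holds the E-box, read 7.07, 7.05, 7.21, 7.09 and 7.33 in the knockout and 7.69, 6.90, 7.38, 7.30 and 7.49 in the control arrays (log2 fold change -0.20 ± 0.14, adjusted p = 0.592). Insig2 read 5.60, 5.62, 5.91, 5.61 and 5.69 against 5.83, 6.15, 6.34, 6.14 and 6.00. Its knockout arrays lay below the controls except replicate 3, which lay above control replicate 1. On average Insig2 was at -0.41 ± 0.12 log2 units (SE, adjusted p = 0.115). Without control replicate 1 Insig2 was at -0.47 and was the 1 sterol gene to pass (adjusted p = 0.0428).

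Hmgcs1, which condenses acetyl units at the entry to the mevalonate pathway and holds the sterol element, read 6.97, 7.16, 7.45, 7.89 and 7.43 in the knockout and 6.23, 6.69, 7.18, 7.23 and 7.06 in the control arrays. The group difference was 0.50 ± 0.22 log2 units (SE, adjusted p = 0.337), or 0.34 without control replicate 1. The kinases and the decarboxylase that follow gave small values, 0.15 ± 0.17 for Mvk, 0.12 ± 0.16 for Pmvk and -0.19 ± 0.14 for Mvd. Of the isoprenoid enzymes Idi1 was at 0.29 ± 0.15 and Fdps at 0.17 ± 0.24, and both read close to or under the median of all values. Fdft1, squalene synthase, was at 0.20 ± 0.21.

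Next come the enzymes that turn squalene into lanosterol and demethylate it. Sqle, the squalene epoxidase that limits flux in the late pathway, read 5.45, 5.05, 4.95, 4.69 and 4.78 in the knockout and 4.64, 4.22, 4.76, 4.54 and 4.08 in the control arrays. Its log2 fold change was 0.54 ± 0.17 (SE, adjusted p = 0.170), with knockout replicate 4 under the highest control. Lss, lanosterol synthase, read 3.57, 3.41, 3.70, 4.02 and 3.34 against 2.86, 3.26, 2.96, 3.49 and 3.12 (0.47 ± 0.16, adjusted p = 0.188). These values lie around the median of all genes. Cyp51, the lanosterol demethylase, read 4.97, 4.44, 4.61, 4.77 and 4.37 against 3.64, 4.16, 4.36, 4.53 and 4.16. Cyp51 was at 0.46 ± 0.17 log2 units (adjusted p = 0.252), and at 0.33 without control replicate 1.

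Among the later steps toward cholesterol, Ebp, the sterol isomerase, read 6.18, 6.19, 5.98, 6.48 and 5.84 in the knockout and 6.06, 6.63, 6.64, 6.42 and 6.64 in the control arrays. Its log2 fold change was -0.35 ± 0.15 (SE, adjusted p = 0.350). Msmo1 (-0.15 ± 0.17), Nsdhl (0.05 ± 0.12) and Hsd17b7 (-0.18 ± 0.21), which remove the methyl groups of lanosterol, had adjusted p-values of 0.763 to 0.906. Sc5d (-0.07 ± 0.16) and Dhcr7 (0.10 ± 0.18), which set the final double bonds, had values of 0.884 and 0.857. Stard4, a carrier of cholesterol within the cell, was at -0.26 ± 0.14 (adjusted p = 0.464).

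The rest of the pathway was followed in 5 further lists of 62 genes, of which 54 were measured. Of the 54, 3 passed, all in the list of LXR factors and sterol efflux genes, where 1 of 9 rose and 2 fell. Over all genes 1.3% passed higher and 0.846% lower. LXR receptors respond to excess sterol and raise efflux genes. Abca1, the transporter that loads cholesterol onto apolipoproteins, read 7.80, 7.88, 7.99, 7.89 and 8.10 in the knockout and 6.87, 7.09, 7.07, 7.28 and 6.80 in the control arrays. It rose by 0.91 ± 0.11 log2 units (1.88-fold, adjusted p = 0.00159), and its groups did not overlap.

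Mylip, a ubiquitin ligase of lipoprotein receptors and also a known LXR target, went the other way. It read 7.93, 8.08, 8.36, 8.33 and 8.05 in the knockout and 9.35, 9.35, 9.39, 9.57 and 9.31 in the control arrays, a difference of -1.24 ± 0.11 log2 units (2.37-fold lower, adjusted p = 0.000241). Every knockout array lay below every control array, and the calls of Abca1 and Mylip held without each single array. Apoe, the apolipoprotein of lipid transport, was lower by 1.47-fold, at -0.55 ± 0.13 log2 units (adjusted p = 0.0470). That call ended when any array other than control replicate 1 or 2 was left out (adjusted p up to 0.113), with cyclic loess (0.0882) and with the replicate number as a block (0.0944). It also ended with the hepatocyte marker mean as a covariate (0.0932) and without knockout replicates 1 and 4 (0.214). Abcg1, another efflux transporter, was at 0.02 ± 0.18.

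The other 4 lists held 0 genes past the threshold by limma. Of 21 other fatty acid enzymes, 12 had a log2 fold change above 0 and 9 below, with a median of 0.05. Their list mean overlapped, at 5.55 to 5.78 in the knockout and 5.19 to 5.78 in the control arrays. Among these enzymes 2 had an unadjusted p under 0.05, where 13.6% of all genes did. They were the elongase Elovl7 (1.01 ± 0.29, adjusted p = 0.122) and Fads3, a desaturase family gene (-0.79 ± 0.22, adjusted p = 0.102), which passed without control replicate 1 (-1.0, adjusted p = 0.00278). Of 5 other sterol enzymes, 0 had an unadjusted p under 0.05, with Ggps1 (-0.19 ± 0.16) and the reductase Lbr (-0.13 ± 0.15) having the smallest p. Of 11 genes of SREBP processing also 0 did, with the ligase Rnf139 (-0.29 ± 0.14) and the coat protein Sec24a (0.18 ± 0.14) nearest. Of 8 genes of sterol uptake, release and esterification 2 did, the receptors Vldlr (0.69 ± 0.21, adjusted p = 0.136) and Scarb1 (0.32 ± 0.11, adjusted p = 0.216).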

How the data were processed

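The authors' deposited log2 values came from RMA (version not given), per the submitters' processing notes. RMA corrects background, brings arrays to 1 distribution and summarises probes. No depth exists for arrays, and their number limits precision. Of 25428 probe sets, 24705 had 1 symbol, and 1 repeated symbol was represented by the brighter set. Groups came from the sample titles. limma (version 3.58.1, R version 4.3.3; lmFit, eBayes) was fitted over all 24704 genes and 10 arrays without covariates, two-sided, with Benjamini-Hochberg adjustment. The procedure was tested on simulated data of this comparison (24704 genes, 200 of them changed, 10 runs). It recovered 15.8% of 1.41-fold, 72.5% of 2-fold and 96.1% of 4-fold changes, with 4.79% of calls false. Noise was drawn independently for each gene and array. Variation that genes share on an array, as in control replicate 1, is therefore not covered by these rates. The members, gene lists and tests were chosen with earlier results of these data known. Named were all members, with every array's value for called members, non-overlapping members, the 6 largest changes of each arm, and fixed regulators and entry enzymes (Srebf1, Srebf2, Insig1, Insig2, Scap, Fasn, Hmgcs1, Thrsp, Me1). From the other pathway lists, called genes were named, or the 2 with the smallest p. Abcg1 and Elovl3 were named outside this rule. Each array is a pool of 3 mice, so the tests rest on variation among pools. Of 62 genes in the other pathway lists, those not measured were not analysed here.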

Additional observations from a re-analysis of the deposited data

Results flagged for a closer look

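In 5 of the 80 sets of 5 arrays examined (members, arm means and the called efflux genes, in each group), 1 array stood far from the rest by Dixon's criterion, where chance gives about 1 in 20. In 3 of them it was control replicate 1, which was low for Acsl3 (4.28, others 5.08 to 5.41), Scap (6.55, others 6.89 to 7.02) and Msmo1 (5.75, others 6.42 to 6.60). Elovl6 was low in knockout replicate 5 (3.23, others 4.13 to 4.20), and Stard4 in knockout replicate 2 (6.39, others 6.67 to 6.79).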

How the results depend on the processing

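Fasn passed under all 17 alternatives, of which the intensity trend was fitted together with robust priors. Without 1 array at a time, 287 to 737 genes passed in all, 2 to 4 members, 2 to 3 of the fatty acid arm, 0 to 1 of the sterol arm and 2 to 4 other pathway genes. The median log2 fold change was then 0.42 to 0.57 in the fatty acid arm and 0.0061 to 0.14 in the sterol arm. With the replicate number as a block, 275 genes and 1 member (Fasn) passed. The labels do not say whether the numbers pair the pools. Same-numbered arrays had residual correlations of -0.16 to 0.04, which do not settle it. Array weights gave 1070 genes, 7 members (6 and 1 by arm) and a sterol median of 0.011. Without knockout replicates 1 and 4, 170 genes and 1 member of the fatty acid arm passed. With dim genes left out, 32 members remained and the sterol median was -0.013. Acsl3, Scd2, Thrsp, Scd1, Acss2, Insig2, Fads3 and Apoe changed sides of the threshold under some alternative. The causes were not tested, and no called value changed sign. Members near the median of all values, such as Lss and Fdps, are limited by signal over background.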

Other observations

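Elovl3, an elongase of very long saturated chains that is not among the 35 members and was chosen after its values were seen, varied more among knockout than control arrays. It read 3.16, 3.22, 4.61, 6.15 and 4.92 in the knockout and 4.76, 5.35, 5.31, 5.38 and 5.41 in the control arrays. The log2 fold change was -0.83 ± 0.49 (SE, adjusted p = 0.515, limma). Knockout replicates 1 and 4, which had the highest hepatocyte marker means, held the lowest and the highest value.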
